A study of Homo sapiens with 16 samples.

Results

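The genes of the cytosolic ribosome were described in the ovarian carcinoma cell lines OVCAR3 and UWB1.289 after treatment with the PARP inhibitor olaparib. They were taken from the gene count table by symbol, as RPL or RPS followed by a number and, where present, an ending A, X, L or L1, together with RPLP0, RPLP1, RPLP2 and RPSA, with pseudogenes left out. This gave 84 of 59428 genes: 43 of the large subunit, 31 of the small subunit, the 3 stalk genes and 7 paralogs whose symbols end in L or L1. OVCAR3 has an intact BRCA1 gene, UWB1.289 carries a deleterious BRCA1 mutation, and each is a single cell line. OVCAR3 was given 7.5 µM and UWB1.289 3.5 µM olaparib for 96 hours, the controls of each line received the solvent DMSO, and each of the 4 groups has 4 replicates. The lines were also grown in different media, so that any comparison between them cannot tell apart the cell line, its BRCA1 status, the dose and the medium.

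Each ribosome consists of a small subunit, which reads the mRNA, and a large subunit, which forms the peptide bonds, and nearly every ribosomal protein is present once per particle. Their mRNAs are among the most abundant of a growing cell, and many begin with a C followed by a run of pyrimidines, the terminal oligopyrimidine (TOP) tract, through which mTORC1 and LARP1 control their translation and stability. A few genes have paralogs that can take the place of the parent protein, and free RPL5 and RPL11 bind MDM2 and thereby stabilize p53.

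The starts of the transcripts show what most of these genes share beyond their protein product. Of the 84 genes, 67 had an entry in the RefSeq promoter table (GRCh38.p14), and 47 of them (70.1%) had an annotated start at a C that is followed by at least 4 further C or T. The same was found for 1404 of all 27305 genes of the promoter table (5.14%). The windows below run from 12 bases before the start to 17 bases after it on the strand of the gene, with the tract in capitals. They were chosen because the results on olaparib and on the cell lines turn on these genes.
RPS27 (chr1:153990750-153990779, + strand): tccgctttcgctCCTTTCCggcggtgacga
RPS18 (chr6:33272063-33272092, + strand): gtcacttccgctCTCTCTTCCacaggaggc
RPS14 (chr5:150449722-150449751, - strand): ccccctcccactCTCTCTTTCCggtgtgga
RPS21 (chr20:62387091-62387120, + strand): gactagctgcttCCTTTCTCTCTCgcgcgc
RPL7A (chr9:133348206-133348235, + strand): caattccctttcCTTTCTCTCTCCTCCCgc
RPL3 (chr22:39319606-39319635, - strand): aggccgaccggcctctaccggcgggatttg
RPS16 (chr19:39435932-39435961, - strand): gcccctagctttCCTTTTCCggttgcggcg
RPS28 (chr19:8321484-8321513, + strand): ccgaagcacgtgactcctctccgccagacc
RPL22 (chr1:6199578-6199607, - strand): ttcgctcacctcCCTTTCTaactccgctgc
RPL22L1 (chr3:170870178-170870207, - strand): ggccgtagcttcCTCTCTgctctcgcggcc
RPS27L (chr15:63157460-63157489, - strand): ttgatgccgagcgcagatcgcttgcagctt
RPL3, RPS28 and RPS27L have no such tract at the annotated start. Of the 5 paralogs with an entry, RPL22L1 alone has one, while RPL7L1, RPL26L1, RPS27L and RPL10L do not. The match describes these letters at the annotated start and not where transcription began in these cells.

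RNA was sequenced as QuantSeq libraries, which are primed at the poly(A) tail and give reads from the 3′ end of a transcript, so that counts were not divided by gene length. Total counts per library lay between 5599571 and 7730228. Of 8 serous ovarian carcinoma markers, 8 were above 3 counts in OVCAR3 and 7 in UWB1.289, where WT1 had at most 3 counts in a library. Of 8 markers of fibroblasts, leukocytes and endothelium, 2 were above 3 counts in OVCAR3 with DMSO, 3 with olaparib and 5 in both groups of UWB1.289. They summed to 22.0 to 30.9, 32.0 to 39.6, 53.5 to 73.1 and 39.2 to 47.9 CPM (counts divided by the library size and put on one common scale) in the same order, with COL3A1 at 0 in every library and DCN and CD3E at no more than 1 count. COL1A2, PTPRC and PECAM1 were higher and COL1A1 lower in UWB1.289. Whether these counts came from other cells or from the carcinoma cells themselves was not tested. Nothing in the labels says whether the replicates came from separate cultures, so p-values measure the spread between these libraries, which may be technical. Library counts are relative, and lower RNA of a gene per cell cannot be told apart from more RNA of other genes.

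Of the 84 genes, 80 had an average above 10 counts over the 16 libraries. RPL10L had no count in any library, which allows up to 0.536 CPM in the shallowest, and RPL3L had 6 counts in all, both paralogs known from testis or striated muscle. RPL17 had 131 counts over the 16 libraries, although each ribosome carries its protein. The exons of RPL17 share 24.9% of their bases with the read-through gene RPL17-C18orf32, and how the authors counted reads in such overlaps is not stated. Beside RPL17, its pseudogene rows held 126 counts (96.2% of its own), so the values of RPL17 are uncertain. RPS10 shares 31.5% of its exonic bases with RPS10-NUDT3.

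Together the 84 genes took between 11.5 and 14.2% of all counts of a library, and in OVCAR3 the share was lower in every olaparib library than in any control. In OVCAR3 the share was 13.5, 14.1, 13.6 and 13.3% with DMSO and 11.5, 12.1, 12.4 and 11.9% with olaparib. The groups did not overlap, and their means were 13.6% ± 0.354 and 12% ± 0.374 (SD, n = 4 each). In UWB1.289 it was 14.2, 13.6, 14.0 and 13.1% with DMSO (mean 13.7% ± 0.516) and 13.6, 13.6, 12.7 and 12% with olaparib (12.9% ± 0.774, SD, n = 4 each). There the groups overlapped, with 2 olaparib libraries inside the DMSO range. These sums are a description, since no test was made over the joint level.

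**Figure D1:**
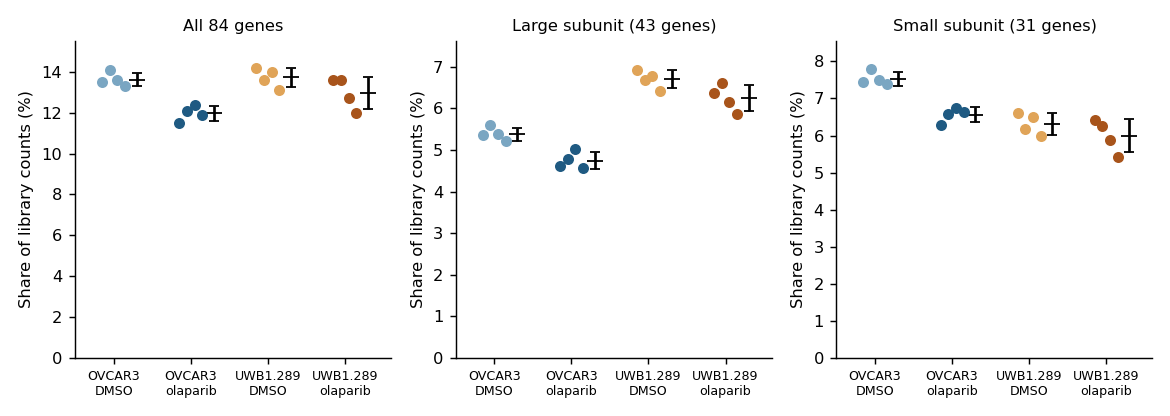
Share of all counts of a library (percent, axis from 0) held by the 84 ribosomal protein genes, the 43 large-subunit genes and the 31 small-subunit genes. Points are libraries in the order of their replicate numbers, and bars give the mean and SD of 4. The OVCAR3 olaparib libraries lie below all OVCAR3 DMSO libraries in each panel. The mean sums differ between the lines in opposite directions for the 2 subunits, with RPS16 the most abundant small-subunit gene in OVCAR3.

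As sums of counts, the subunits divided this share differently in the 2 lines. Large-subunit genes held 5.38% ± 0.157 of the counts in OVCAR3 and 6.70% ± 0.220 in UWB1.289 with DMSO, and small-subunit genes held 7.53% ± 0.183 and 6.31% ± 0.293 (SD, n = 4 each). With olaparib the large-subunit share was 4.74% ± 0.207 in OVCAR3 and 6.25% ± 0.319 in UWB1.289, and the small-subunit share 6.57% ± 0.195 and 5.99% ± 0.451. The stalk genes held between 0.628 and 0.676% in every group on average, and the paralogs between 0.0347 and 0.0493%. A few genes held much of the sum in OVCAR3: RPS16, RPS3, RPS29, RPS24 and RPL27A made up 28.1% of the normalized counts of all 84 genes there, against 19.1% for the 5 most abundant genes of UWB1.289, among them RPS27A, RPS24, RPS29 and RPS12. RPS16 alone averaged 13496 CPM in OVCAR3 and 1819 CPM in UWB1.289 with DMSO, so it weighs heavily in the small-subunit share. Gene by gene, small-subunit genes had a median log2 difference of 0.02 with DMSO (UWB1.289 minus OVCAR3). For large-subunit genes it was 0.39.

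Averaged gene by gene, the level was higher in UWB1.289 and the spread over genes smaller. Over the 80 genes tested in the lines the mean was 9.93 log2 CPM in OVCAR3 and 10.20 in UWB1.289 with DMSO, and 9.76 and 10.10 with olaparib. The SD over the genes was 1.71 and 1.52 log2 units with DMSO and 1.65 and 1.49 with olaparib. Between replicates of a group, the SD of a single gene had a median of 0.0673 log2 units in OVCAR3 with DMSO, 0.0982 with olaparib, 0.0824 in UWB1.289 with DMSO and 0.123 with olaparib. Across 81 genes the order of levels was nearly the same with and without olaparib (Spearman's rho 0.995 in OVCAR3 and 0.994 in UWB1.289) and less alike between the DMSO-treated lines (rho 0.806), which describes genes of the same libraries and not replicates.

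Olaparib in OVCAR3 lowered 41 of the 80 tested ribosomal protein genes (edgeR quasi-likelihood test, adjusted p below 0.1) and raised 1, RPL22L1. Of all 13031 genes tested, 16% were lower and 15.5% higher, and among the 1095 genes with an average above 1000 counts, where 74 of the ribosomal protein genes lie, 22.6% were lower. The changes were small: the median log2 fold change was -0.16 over the 80 genes and -0.01 over all genes, 72 of 80 were negative, and none passed the 2-fold limit of the study, which 5.23% of all genes did. All 4 olaparib libraries lay below all DMSO libraries for 35 of the 80 genes, against 13.3% of all genes. The count of lower genes was 24 of 42 for the large subunit, 16 of 30 for the small subunit, 1 of 3 for the stalk and 0 of 5 for the paralogs. Leaving out 1 library at a time gave 30 to 39 lower genes.

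The largest decrease was that of RPS27, a zinc-finger protein of the small subunit. Its normalized CPM was 923, 994, 955 and 949 with DMSO and 659, 699, 815 and 618 with olaparib. No olaparib library reached the lowest control, and the gene fell by 0.45 in log2 units (SE 0.0782, edgeR adjusted p = 0.000245). RPS18, a protein of the head of the small subunit, was at 1422, 1417, 1496 and 1369 CPM with DMSO and at 1088, 1080, 1205 and 813 with olaparib. Replicate 4 was the lowest, the groups did not overlap, and RPS18 fell by 0.44 (SE 0.0903, edgeR adjusted p = 0.00116). RPS14, whose loss on one chromosome copy underlies the anemia of the 5q deletion, fell by 0.38 (SE 0.0705, edgeR adjusted p = 0.000423), from 2223 ± 114 to 1699 ± 144 CPM (SD, n = 4 each).

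On the large subunit, RPL3, which lies next to the peptidyl transferase center, was at 553, 510, 524 and 527 CPM with DMSO and at 390, 428, 451 and 376 with olaparib. The groups did not overlap, and RPL3 fell by 0.36 (SE 0.0726, edgeR adjusted p = 0.00112). RPL7A was at 2251, 2372, 2275 and 2272 CPM with DMSO and at 1735, 1851, 1874 and 1702 with olaparib. It fell by 0.35 (SE 0.0623, edgeR adjusted p = 0.000288), again without overlap. RPS6, the substrate of the S6 kinases, fell by 0.25 (SE 0.0671, edgeR adjusted p = 0.0087), and RPS16, the most abundant of the genes in this line, by 0.34 (SE 0.0600, edgeR adjusted p = 0.000263).

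Genes with a function outside the ribosome did not move as one. RPL5 fell by 0.16 (SE 0.0644, edgeR adjusted p = 0.0763), a call lost in 9 of 18 alternatives, while its partner RPL11 was at -0.06 (edgeR adjusted p = 0.603). RPS27A, which is made as a fusion with ubiquitin, was at -0.12 (edgeR adjusted p = 0.174), and RPSA, named for its laminin-binding form, at 0.01 (edgeR adjusted p = 0.966). Of the stalk proteins, which recruit translation factors, RPLP0 fell by 0.22 (SE 0.0628, edgeR adjusted p = 0.0138), and RPLP1 and RPLP2 were at -0.09 and -0.11 (edgeR adjusted p = 0.298 and 0.231).

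**Figure D2:**
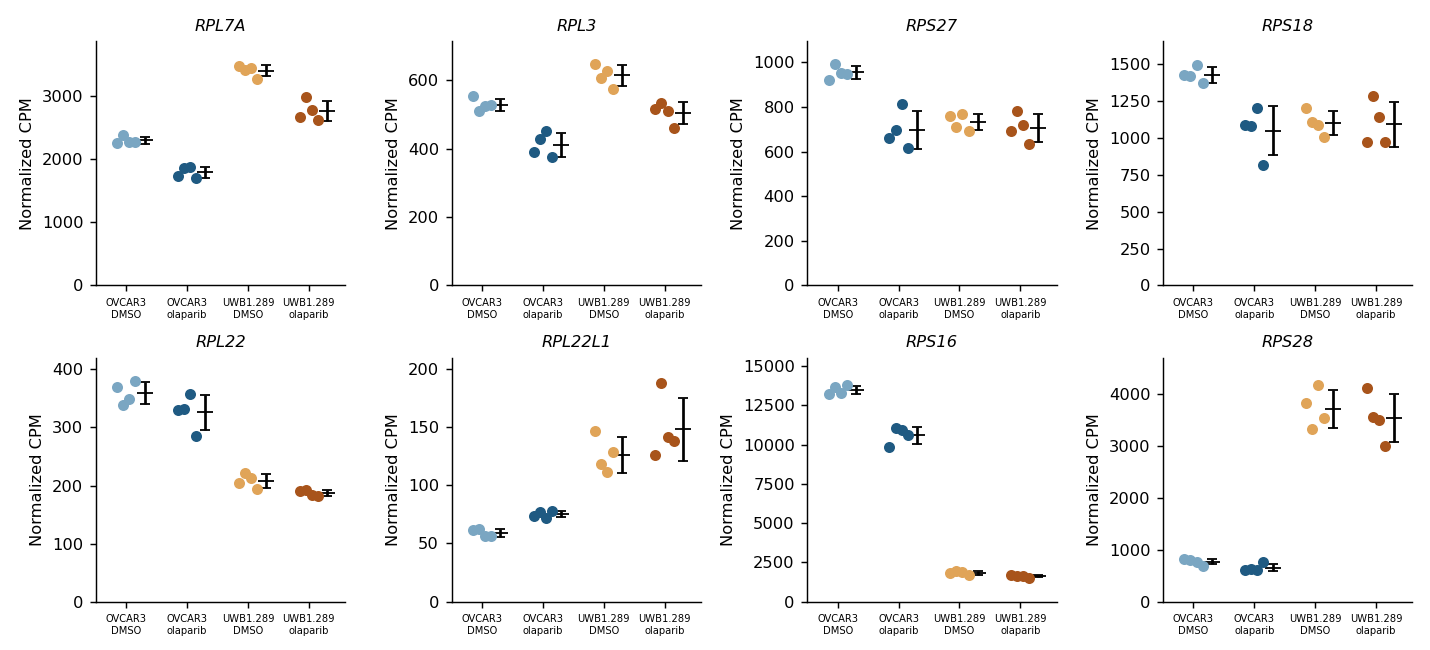
Normalized CPM (linear axis from 0) of 8 ribosomal protein genes in each library, with points in the order of the replicate numbers and bars for the mean and SD of 4. RPL7A and RPL3 were lower with olaparib in both lines, RPS27 and RPS18 in OVCAR3, RPL22L1 was higher in OVCAR3 with olaparib, and RPS16 and RPS28 differed between the lines by 7.43-fold and 4.81-fold in opposite directions.

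In UWB1.289, olaparib lowered 10 of the 81 tested genes (edgeR, adjusted p below 0.1) and raised none, with 1 gene higher at an unadjusted p below 0.05 and none higher by DESeq2. Of all 12748 genes, 6.10% were lower and 7.77% higher, and among the 1125 genes with an average above 1000 counts 12.9% were lower, next to 10 of 75 ribosomal protein genes (13.3%), so that the share of calls was close to that of equally abundant genes. The median log2 fold change was -0.10 against -0.00 over all genes, and 70 of 81 were negative. Above 1000 counts the medians were -0.10 for the ribosomal protein genes and -0.05 for all genes. None passed the 2-fold limit, which 2.21% of all genes did. All olaparib libraries lay below all DMSO libraries for 10 of the 81 genes, against 6.97% of all genes. The lower genes encode large-subunit proteins, save RPS3A of the small subunit. This split depends on the limit of the call: RPS23 and RPS7 were just above it (edgeR adjusted p = 0.103 and 0.106). Negative values were found for 38 of 43 large-subunit genes (median -0.12) and 28 of 30 small-subunit genes (median -0.10). The replicate number was also used as a block, which treats same-numbered libraries as pairs, although the labels give no pairing. With the block, 20 genes were lower (24.7% of the 81, against 8.71% of all genes). Above 1000 counts they were 26.7% of the 75, against 20.7% of the abundant genes. The block added RPL4, RPL6 and RPL9 of the large subunit, RPS2, RPS7, RPS16, RPS20, RPS23 and RPS29 of the small subunit, and RPLP0. The count also depended on single libraries: it was 4 without DMSO replicate 1, 5 without DMSO replicate 2 or 3, 19 without olaparib replicate 2, 4 without olaparib replicate 3 and 3 without olaparib replicate 4.

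RPL7A led this list. Its CPM was 3468, 3405, 3442 and 3268 with DMSO and 2669, 2978, 2779 and 2611 with olaparib. The groups did not overlap, and the gene fell by 0.30 (SE 0.0712, edgeR adjusted p = 0.00901). RPL23, another protein that can bind MDM2, fell by 0.29 (SE 0.0739, edgeR adjusted p = 0.0151), with 1129 to 1226 CPM in the controls and 912 to 1060 with olaparib. RPL3 fell by 0.28 (SE 0.0748, edgeR adjusted p = 0.0184), with 576 to 648 and 461 to 533 CPM. These 3 genes remained lower in all 18 alternatives run for each.

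The other 7 had adjusted p-values between 0.0448 and 0.098 in this fit, and between 0.00496 and 0.0198 with the replicate block. RPL34 and RPS3A both fell by 0.26 (edgeR adjusted p = 0.0497 and 0.0633), RPL10, which completes the large subunit late in its assembly, by 0.24 (edgeR adjusted p = 0.0622), and RPL5 by 0.22 (edgeR adjusted p = 0.0448). RPL7, RPL31 and RPL35A made up the rest. RPS27 was at -0.05 (edgeR adjusted p = 0.759), with 693 to 770 CPM in the controls and 632 to 783 with olaparib. RPS18 was at -0.01 (edgeR adjusted p = 0.97), and its olaparib libraries (968 to 1284 CPM) spanned the controls (1005 to 1199 CPM).

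All 10 genes that were lower in UWB1.289 were also lower in OVCAR3, where they make up 24.4% of the 41. Of all genes tested in both lines, 308 were lower in both, which is 41.7% of the 739 lower in UWB1.289 and 17.1% of the 1800 lower in OVCAR3. Among the 778 genes above 1000 counts in both, 52 were lower in both (46.4 and 31.9%). With the replicate block in UWB1.289, 18 of the 20 were among the 41 (90% of the 20 and 43.9% of the 41), the exceptions being RPL9 and RPS20, and 401 of all genes were lower in both (37.9 and 22.3%), with 72 of the abundant ones (41.4 and 44.2%). The comparisons in the 2 lines use different libraries. Of the 80 genes tested in both, 62 had a negative log2 fold change in both lines, 17 had opposite signs and RPL22L1 alone was positive in both, and 32.0% of all 11670 genes tested in both were negative in both. The log2 fold changes of the 2 lines had a Pearson's r of 0.40 and a Spearman's rho of 0.363 over the 80 genes, and of 0.371 and 0.321 over all genes. These are correlations across genes, which are not independent replicates.

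**Figure D3:**
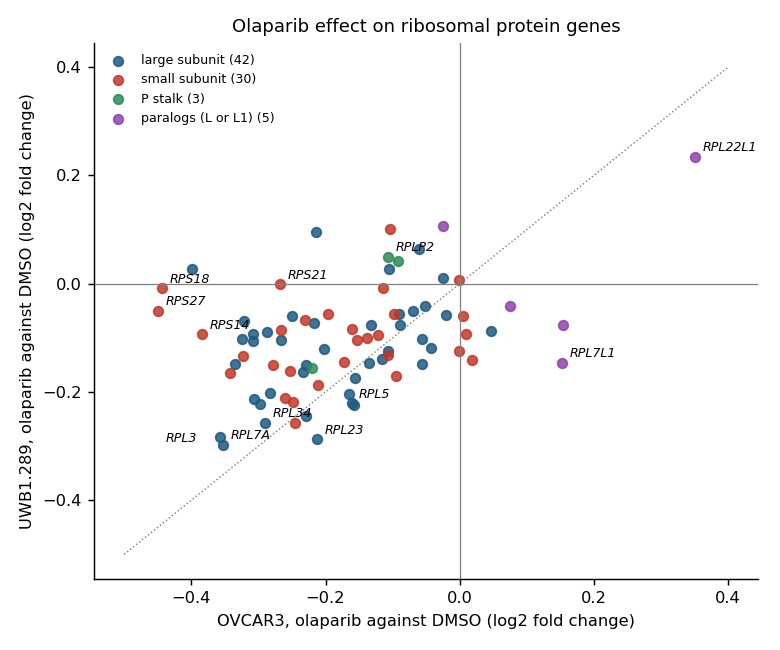
Log2 fold change of olaparib against DMSO in OVCAR3 (horizontal) and UWB1.289 (vertical) for the 80 ribosomal protein genes tested in both, colored by subunit, with equality as a dotted line. Most points (62 of 80) lie at the lower left, where both values are negative, RPS27 and RPS18 lie far to the left near 0 on the vertical axis, and RPL22L1 lies alone at the upper right.

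Whether olaparib acted differently on a gene in the 2 lines was tested in 1 fit over all 16 libraries. It was called for 4 of 81 genes, all less lowered in UWB1.289 and all of the small subunit. None was called in the other direction by edgeR or by DESeq2, and 1 had an unadjusted p below 0.05 by each. Of all 14243 genes, 5.10% differed in the first direction and 5.83% in the second, and 3.66% passed the 2-fold limit, which no ribosomal protein gene did. At 4.94%, the share of ribosomal protein genes was close to that of all genes. Among the 1100 genes above 1000 counts, where 75 of the ribosomal protein genes lie, 6.27% differed in the first direction and 12.4% in the second. The difference, UWB1.289 minus OVCAR3, was 0.40 for RPS27 (SE 0.112, edgeR adjusted p = 0.0235) and 0.44 for RPS18 (SE 0.135, edgeR adjusted p = 0.0444). It was 0.27 for RPS21 (SE 0.0970, edgeR adjusted p = 0.0935) and 0.29 for RPS14 (SE 0.107, edgeR adjusted p = 0.09996). RPS27 stayed below 0.1 in all 25 alternatives, RPS18 in 23, RPS21 in 10 and RPS14 in 9. The number of genes called was 1 without UWB1.289 DMSO replicate 4 or olaparib replicate 2, and 2 without UWB1.289 DMSO replicate 2, UWB1.289 olaparib replicate 3, OVCAR3 DMSO replicate 1, 2 or 3, or OVCAR3 olaparib replicate 1 or 2.

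The lines differed far more from each other than through olaparib. With DMSO, 46 of 80 ribosomal protein genes were higher in UWB1.289 and 22 lower (edgeR, adjusted p below 0.1), against 39.8% higher and 40.1% lower of 13366 genes. The 2-fold limit was passed by 16 higher and 5 lower genes, 21 of 80, where 38.4% of all genes passed it. The SD of the log2 differences was 0.845 over the ribosomal protein genes and 2.08 over all genes, and the medians were 0.24 and -0.02. Above 1000 counts, 57.3% of 75 ribosomal protein genes were higher and 29.3% lower, against 49.3 and 38.9% of all 1114 genes. There the SDs were 0.859 and 1.59, and the medians 0.23 and 0.11. Of the large-subunit genes 27 of 42 were higher and 8 lower, and of the small-subunit genes 14 of 30 were higher and 12 lower.

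RPS16, whose tail reaches the decoding site, differed most. Its CPM was 13247, 13668, 13286 and 13782 in OVCAR3 and 1800, 1929, 1866 and 1682 in UWB1.289. The levels were 7.43-fold apart without overlap (log2 difference -2.89, SE 0.0634, edgeR adjusted p = 4.43e-26). RPS2, RPS3 and RPS9, which line the channel where mRNA enters, were also lower in UWB1.289, at -1.64, -1.34 and -1.52 (edgeR adjusted p = 6.31e-20, 6.7e-18 and 1.55e-18). RPL34 was at -1.15 (SE 0.0667, edgeR adjusted p = 1.05e-15).

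At the other end stood RPS28, which lies where mRNA leaves the small subunit. Its CPM was 820, 800, 770 and 695 in OVCAR3 and 3823, 3329, 4168 and 3526 in UWB1.289. The levels were 4.81-fold apart (log2 difference 2.26, SE 0.0728, edgeR adjusted p = 4.5e-22). RPL13 was higher by 1.85, RPS25 by 1.66, RPL26 by 1.58 and RPS15A by 1.5 (edgeR adjusted p = 1.18e-21, 3.51e-19, 5.44e-19 and 2.79e-18). RPL5 and RPL11 of the 5S particle were higher together, by 1.05 and 1.10 (edgeR adjusted p = 3.47e-16 and 9.24e-16).

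**Figure D4:**
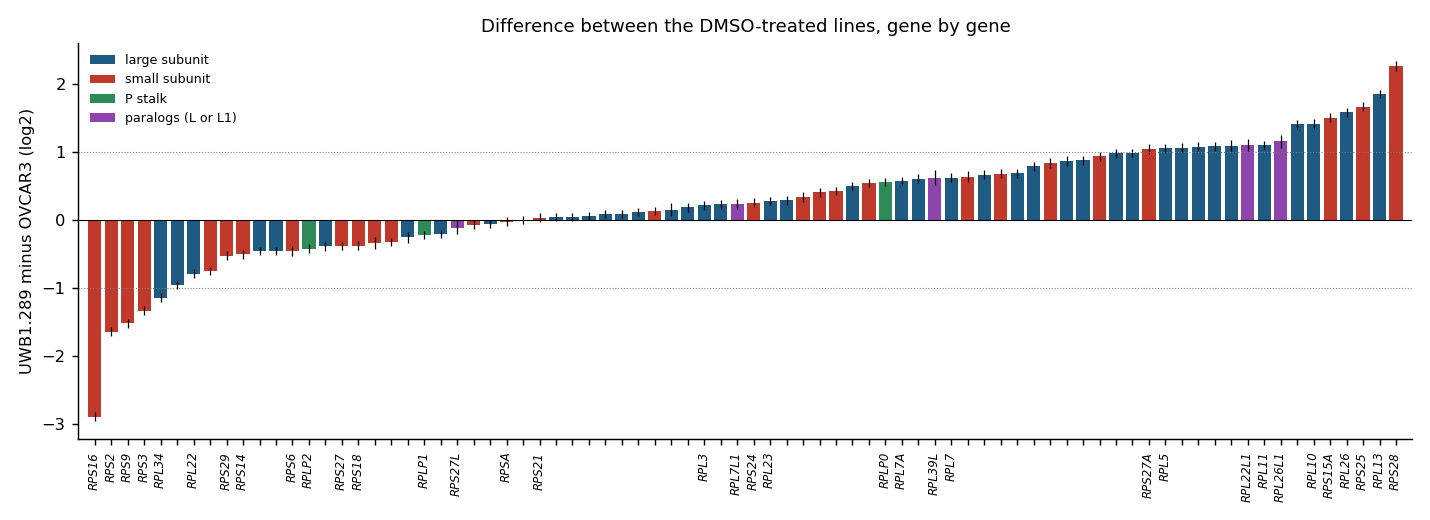
Log2 difference of UWB1.289 minus OVCAR3 with DMSO for 80 ribosomal protein genes in rank order, with names under some of those described in the text, as bars from 0 with the standard error, colored by subunit, with dotted lines at a 2-fold difference. RPS16 stands apart at -2.89, and RPS28 is highest at 2.26.

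The stalk split between the lines: RPLP0 was higher in UWB1.289 by 0.56 (SE 0.0591, edgeR adjusted p = 9.69e-10), and RPLP1 and RPLP2 were lower, at -0.23 and -0.42 (edgeR adjusted p = 0.000733 and 4.61e-07). RPS6 was at -0.46 (edgeR adjusted p = 7.23e-07) and RPS27A at 1.04 (edgeR adjusted p = 2.44e-14). RPSA did not pass the test (-0.03, SE 0.0691, edgeR adjusted p = 0.736), and its group means were 374 ± 6.75 and 368 ± 31.1 CPM (SD, n = 4 each).

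RPL22 and its paralog RPL22L1 differed in opposite directions. RPL22 was at 370, 338, 349 and 379 CPM in OVCAR3 and at 204, 222, 213 and 194 in UWB1.289 (log2 difference -0.79, SE 0.0694, edgeR adjusted p = 1.57e-11). RPL22L1 was at 61.4, 62.2, 56.0 and 56.5 CPM in OVCAR3 and at 147, 118, 111 and 128 in UWB1.289 (log2 difference 1.09, SE 0.0890, edgeR adjusted p = 2.84e-12). Neither pair of groups overlapped, and in 3′ counts RPL22L1 amounted to 16.5% ± 1.46 of the CPM of RPL22 in OVCAR3 and to 60.9% ± 9.72 in UWB1.289 (SD, n = 4 each). With olaparib RPL22L1 was at 73.6, 76.9, 71.9 and 77.7 CPM in OVCAR3, above every control, and rose by 0.35 (SE 0.0833, edgeR adjusted p = 0.00406), which held in all 18 alternatives. In UWB1.289 it was at 126, 187, 141 and 138 CPM with olaparib, replicate 2 being the highest, and did not pass the test (0.23, SE 0.111, edgeR adjusted p = 0.21). RPL22 itself was at -0.13 and -0.15 with olaparib (edgeR adjusted p = 0.224 and 0.259), and the ratio was 23.2% ± 2.99 and 78.8% ± 13.0.

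With DMSO, the other tested paralogs were at 2.04 to 15.8% of the CPM of their parents in OVCAR3 and at 1.52 to 12.1% in UWB1.289. The highest in OVCAR3 was RPL7L1, close to the 16.5% of RPL22L1 there. RPL26L1 was at 27.6 ± 1.24 CPM in OVCAR3 and 61.3 ± 4.95 in UWB1.289 with DMSO (log2 difference 1.15, SE 0.0983, edgeR adjusted p = 8.55e-12), next to 1353 and 4057 CPM for RPL26. RPL39L was at 36.5 ± 6.03 and 56.2 ± 4.38 CPM (0.62, SE 0.108, edgeR adjusted p = 7.01e-06), and RPL7L1 at 149 ± 9.77 and 175 ± 14.1 (0.23, SE 0.0763, edgeR adjusted p = 0.00677). RPS27L, a paralog of RPS27 that p53 can induce, was at 74.7 ± 6.06 and 69.1 ± 7.66 CPM (-0.11, SE 0.0910, edgeR adjusted p = 0.253). With olaparib, none of these 4 passed the test in either line, with log2 fold changes between -0.15 and 0.15. For RPL7L1 in OVCAR3, all olaparib libraries (159 to 169 CPM) lay above all controls (139 to 158 CPM), with an edgeR adjusted p of 0.147. Its ratio to RPL7 in OVCAR3 was 15.8% with DMSO and 19.6% with olaparib, and that of RPS27L to RPS27 was 7.82 and 11.5%. Both ratios were without overlap between the groups, while those of RPL26L1 and RPL39L overlapped.

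The differences between the lines were alike for ribosomal protein genes and the genes around them. For each ribosomal protein gene the median log2 difference of the other tested genes within 1 Mb was taken, where at least 5 were tested. Over the 76 genes with such neighbors, the gene and the neighbor median had a Pearson's r of 0.834 and a Spearman's rho of 0.838, and the sign was the same for 62 (81.6%). For 11195 other tested genes, r was 0.369 and rho 0.485, with the same sign for 69.3%, and for the 951 of them with an average above 1000 counts r was 0.485 and rho 0.622, with the same sign for 73.4%. Leaving out RPS16 and RPL22, the 2 genes with the farthest neighbor medians, left an r of 0.79 over 74 genes. Within 500 kb r was 0.866 over 65 ribosomal protein genes, and within 2000 kb it was 0.717 over 80. For the other genes above 1000 counts it was 0.514 and 0.442. These are correlations across sites of the same libraries, 5 pairs of ribosomal protein genes lie within 1 Mb of each other, and the window was chosen after the differences were seen.

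RPS16 (chromosome 19, 39433137 to 39435949, reverse strand, hg38) had 42 tested neighbors with a median of -2.88, next to its own -2.89. Of these, 41 were lower in UWB1.289 and 37 lay below -1, among them FBL, the rRNA methyltransferase fibrillarin, at -2.19 (edgeR adjusted p = 3.57e-23). RPS25 had 32 neighbors with a median of 1.34, of which 29 were higher in UWB1.289, and RPL26 had 37 with a median of 1.10, of which 30 were higher. RPL34 had 7, all lower, with a median of -0.75. RPL22 (chromosome 1, 6185020 to 6209389, reverse strand) had 17 with a median of -1.53, below its own value. Other genes stood apart from their surroundings: RPS15A was at 1.5 with a neighbor median of 0.18, RPS2 at -1.64 with -0.50, RPS9 at -1.52 with -0.45, and RPL7A at 0.56 with -0.61. RPL22L1 (chromosome 3, 170864875 to 170870208, reverse strand) was at 1.09 with a neighbor median of 0.16.

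**Figure D5:**
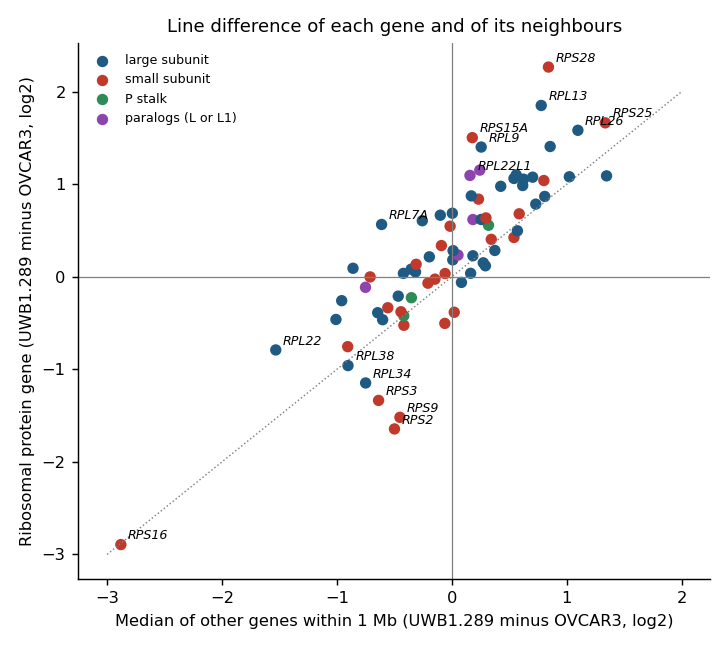
Log2 difference of UWB1.289 minus OVCAR3 with DMSO of each ribosomal protein gene (vertical) against the median of the other tested genes within 1 Mb (horizontal), for the 76 genes with at least 5 such neighbors (RPS16 at the lower left, -2.89 and -2.88). Colors mark the subunit and the dotted line equality, and most points (62 of 76) lie where the signs are the same.

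The tract at the transcript start was found in similar shares of the genes that olaparib lowered in OVCAR3 and of those that were not called. It was in 22 of 32 lower genes with an entry (68.8%) and in 24 of 32 that were not called (75.0%), and in UWB1.289 in 6 of 7 and 41 of 59. Between the lines it was found in 19 of 20 genes lower in UWB1.289, among them RPS16, and in 23 of 34 higher ones, while RPS28, the highest, lacks it. Of the genes not called between the lines, 5 of 11 had it (45.5%). All 4 genes with a different olaparib effect have it, as do 43 of the 62 others. These are counts without a test.

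Of 16 translation factors and partners whose mRNAs are known for the same kind of start, 15 were tested. In OVCAR3 olaparib lowered 7 and raised 1, where 16% of all genes were lower and 15.5% higher, and in UWB1.289 it lowered 5 and raised none, where the shares were 6.10 and 7.77%. The counts of the gene lists that follow are to be read beside these shares. EEF1A1, which brings aminoacyl-tRNA to the ribosome, fell by 0.57 and 0.47 (edgeR adjusted p = 0.00392 and 0.00119), EIF4B, a helper of the eIF4A helicase, by 0.48 and 0.33 (edgeR adjusted p = 0.000241 and 0.0518), and EEF1D was the gene that rose, by 0.17 in OVCAR3 (edgeR adjusted p = 0.0985). Of the ribosomal protein genes that the symbol pattern leaves out, FAU was at 0.02 and 0.06 and RPL36AL at 0.11 and -0.12, and neither passed the test in either line.

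Genes that build ribosomes and passed the test all rose. Of 39 tested genes of rRNA synthesis and ribosome assembly, olaparib raised 15 in OVCAR3 and 10 in UWB1.289 and lowered none, next to the 15.5 and 7.77% of all genes that were higher, with medians of 0.20 and 0.17. TCOF1, the nucleolar protein treacle, rose by 0.72 in OVCAR3 (SE 0.0976, edgeR adjusted p = 1.64e-05) and SBDS, which acts in the last step of large-subunit maturation, by 0.59 (SE 0.113, edgeR adjusted p = 0.000645). UTP15 and RRP12, which act in processing of the small-subunit precursor, rose in UWB1.289 by 0.52 and 0.44 (edgeR adjusted p = 0.0464 and 0.0607). Of 7 chaperones of ribosomal proteins, 3 rose in OVCAR3, with PDCD2L at 0.57 and GRWD1 at 0.29 (edgeR adjusted p = 0.075 and 0.0477), and none passed the test in UWB1.289.

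Among 13 genes of mTORC1 and of TOP mRNA control, 2 fell and 1 rose in OVCAR3, and 1 fell in UWB1.289. DEPTOR, an inhibitor of mTOR, fell by 1.5 and 0.88 (edgeR adjusted p = 0.000511 and 0.00754), TSC1 fell by 0.30 and RHEB rose by 0.33 in OVCAR3 (edgeR adjusted p = 0.0509 and 0.0264), and LARP1 was not called in either line. Of the snoRNA host RNAs, whose introns carry snoRNAs and whose starts often hold TOP tracts, 9 were tested: 2 fell and 1 rose in OVCAR3, and 2 rose in UWB1.289. SNHG8 and SNHG29 fell by 0.54 and 0.43 in OVCAR3 (edgeR adjusted p = 1.17e-05 and 7.92e-05), and SNHG1 rose in both lines, by 0.30 and 0.38 (edgeR adjusted p = 0.015 and 0.0155). Their olaparib effects differed between the lines for SNHG8 (0.57), SNHG29 (0.31) and ZFAS1 (0.50), with edgeR adjusted p of 0.00373, 0.0551 and 0.0573.

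The mitochondrial ribosome is built from another set of genes. Of 73 tested in OVCAR3, 10 fell and 3 rose with olaparib, against 16% lower and 15.5% higher of all genes, with a median of -0.07, MRPL34 at -0.68 (edgeR adjusted p = 0.00169) and MRPL14 at 0.39 (edgeR adjusted p = 0.0104), and in UWB1.289 1 of 74 fell and 2 rose. Of 15 p53 targets, 6 rose and 2 fell in OVCAR3, where FAS was at 1.93 and GDF15 at 1.52 (edgeR adjusted p = 6.63e-06 and 1.59e-06). In UWB1.289 4 of 14 rose and 3 fell, with CDKN1A at 1.07 and GDF15 at 0.78 (edgeR adjusted p = 0.0114 and 6.39e-06). RRM2B fell in both, by 0.89 and 0.85 (edgeR adjusted p = 0.000157 and 0.00165).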

How the data were processed

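The 84 genes and the other gene lists were chosen with earlier results of these data known. The authors deposited raw counts per gene, made with featureCounts 2.0.0 and GENCODE release 38 from BBDuk-trimmed reads that STAR 2.7.9a had placed on hg38 in 2-pass mode. Their settings for strand, for multi-mapping reads and for genes that overlap are not given in the sources used here.

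The test was the quasi-likelihood F test of edgeR 4.0.16 (R 4.3.3), with filterByExpr, TMM factors and p-values adjusted over all tested genes by Benjamini-Hochberg, on the 8 libraries of each line, the 8 DMSO libraries, or all 16 for the difference of effects. A call needs an adjusted p below 0.1, and the 2-fold limit of the study also an average above 10 counts. CPM use TMM library sizes and log2 CPM a prior count of 2. Intervals and floors (3 counts) cover counting error only. Coordinates and neighbors come from GENCODE release 44. The tests were checked on simulated data, in which the smallest change was larger than any olaparib change called for the ribosomal protein genes.

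Correlations of same-numbered libraries over 9536 genes, after removing group means, were 0.133 to 0.224 in UWB1.289 and 0.0346 to 0.165 in OVCAR3. In replicate 1 of both lines, a library of another number correlated more (0.157 against 0.139 in UWB1.289, 0.123 against 0.0852 in OVCAR3). In the other replicates of both lines, the same number correlated most. The labels give no pairing, so whether the numbers pair the libraries is not settled in either line. The reported tests do not use the replicate numbers, and values with the number as a block are given beside those of UWB1.289. Named genes are the paralogs, their parents, the stalk genes, RPL5, RPL11, RPS6, RPSA, RPS27A, the 5 highest and 3 lowest levels, and per comparison the 5 largest called changes in each direction. From the other lists they are the 2 largest called changes per direction and genes that the pattern leaves out. Results of a few genes that these rules name are not reported here. Others, such as RPS20, RPL9 and LARP1, were named after their values were seen. Alternatives were DESeq2 1.42.0, other scalings, filters and thresholds, pooled fits, pseudogene counts and leaving out libraries. The background among genes above 1000 counts and the neighbor windows were added after seeing the data.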

Additional observations from a re-analysis of the deposited data

Results flagged for a closer look

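Among 160 groups of 4 libraries looked at, 10 had 1 library apart from the others by Dixon's criterion, and chance flags about 1 in 20. In OVCAR3 with olaparib, replicate 4 stood apart for 4 genes: RPL23 at 9.32 log2 CPM (the others 9.76 to 9.82), RPL34 at 10.69 (11.35 to 11.42), RPS15A at 7.91 (8.09 to 8.12) and RPS14 at 10.90 (10.65 to 10.69). Without this library, 39 genes were lower in OVCAR3. In UWB1.289 with DMSO, replicate 3 was high for RPL39L at 5.98 (5.74 to 5.77), RPL7L1 at 7.62 (7.38 to 7.41) and RPLP2 at 10.09 (9.92 to 9.94). In UWB1.289 with olaparib, RPLP2 was at 10.17 in replicate 1 (9.95 to 9.98), RPS27L at 5.73 in replicate 2 (6.15 to 6.20) and RPS21 at 10.86 in replicate 4 (11.13 to 11.14).

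The olaparib effect differed between the lines, by the interaction test of edgeR, for RPS18 (0.44 on the log2 scale, UWB1.289 minus OVCAR3), RPS27 (0.40), RPS14 (0.29) and RPS21 (0.27).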

How the results depend on the processing

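Of the counts recomputed under alternatives, 227 stayed within 1.5 times the reported one and 22 did not, and of the shares 20 stayed and 8, given below, moved. The 79 medians moved by less than the spread between replicates, and of the calls of named genes 926 stayed and 74 were lost. In UWB1.289 the number of lower genes was 20 with the replicate block and 5 at an adjusted p below 0.05, and 3 to 19 with 1 library left out, when 0 to 1 were higher. The replicate block gave 41 lower genes in OVCAR3 and 6 with a different olaparib effect, and moved no count but that of UWB1.289 by over 1.5 times. The genes with a different olaparib effect numbered 2 with DESeq2 size factors, with upper-quartile factors and at an adjusted p below 0.05, and 1 to 5 with 1 library left out, when 0 to 1 differed the other way. Without mitochondrially encoded genes in the total, the joint share was 15.5, 13.7, 15.5 and 14.6% (OVCAR3 DMSO and olaparib, UWB1.289 DMSO and olaparib), and without the 5 most abundant genes 9.84, 8.68, 11.4 and 10.8%. The causes were not tested beyond the construction of each alternative. RPL10L and RPL3L had too few counts for any test, and RPL17 was tested only in UWB1.289 and for the difference of effects.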
